A study of Mus musculus with 8 samples.

Results

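The 10 genes described here are bone morphogenetic protein (BMP) genes and their close partners: the ligands Bmp2, Bmp4, Bmp6 and Bmp7, the antagonists Grem1, Nog and Bambi, and the target genes Id1, Id2 and Id3. They were chosen by symbol and found by Entrez identifier among the 27179 genes of a count matrix, where all 10 had a row. The matrix holds RNA-seq counts from the isogenic lines 67NR, 66cl4, 4T1 and 4T1.2, mouse mammary tumour cells that are of BALB/c origin. With 2 biological replicates of each of the 4 lines there were 8 libraries. None of the lines carried a treatment, and each was grown in culture, in αMEM with foetal calf serum. The 4T1.2 line spreads from the mammary fat pad to bone in mice, and 66cl4 and 67NR are described as having a low metastatic potential next to 4T1 and 4T1.2. Each line is a single established line, so that the 2 replicates measure the spread within a line and not among tumours, and p-values cover that spread alone. No source used here says that the replicates were separate cultures.

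BMPs are secreted ligands of the TGF-β superfamily that bring together type I and type II receptor kinases at the cell surface. The receptors phosphorylate SMAD1, SMAD5 and SMAD9, which join SMAD4 and switch on target genes, among which the Id genes are the classical early responders. Secreted antagonists such as gremlin and noggin hold the ligand outside the cell, while BAMBI is a membrane protein that resembles a receptor without its kinase. The pathway is best known for bone formation and also patterns the embryonic mammary bud.

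The promoter windows of 4 members are shown. Bmp4, Grem1 and Id3 had the highest mean level per length in their roles. Id2 is set beside Id3 as the other target with a window, and its mean levels had the same order over the lines. Each window is the 250 bases before the RefSeq start in GRCm38.p6, written 5′ to 3′ on the gene's own strand. Coordinates of genes are of GRCm38 too. Capitals mark matches, on either strand, to the SMAD box CAGAC, the GC-rich SMAD site GGCGCC and the E-box CANNTG. No match overlapped another in these windows.
Bmp4 (chr14:46390670-46390919, minus strand): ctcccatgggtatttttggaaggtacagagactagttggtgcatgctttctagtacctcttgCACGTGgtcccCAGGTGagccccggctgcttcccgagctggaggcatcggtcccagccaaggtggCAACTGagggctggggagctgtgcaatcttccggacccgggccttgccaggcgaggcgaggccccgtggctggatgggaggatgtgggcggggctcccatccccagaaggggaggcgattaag
Grem1 (chr2:113758649-113758898, minus strand): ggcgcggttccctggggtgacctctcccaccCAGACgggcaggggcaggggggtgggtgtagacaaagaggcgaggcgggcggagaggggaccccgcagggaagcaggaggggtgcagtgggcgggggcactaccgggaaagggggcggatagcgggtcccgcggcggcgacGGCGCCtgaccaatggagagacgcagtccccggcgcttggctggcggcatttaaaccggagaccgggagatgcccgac
Id2 (chr12:25096093-25096342, minus strand): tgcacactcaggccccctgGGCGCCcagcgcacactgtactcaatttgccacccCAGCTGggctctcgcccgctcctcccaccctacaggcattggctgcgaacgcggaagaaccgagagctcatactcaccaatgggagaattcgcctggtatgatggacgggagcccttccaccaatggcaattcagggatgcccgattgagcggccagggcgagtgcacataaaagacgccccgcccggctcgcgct
Id3 (chr4:136143572-136143821, plus strand): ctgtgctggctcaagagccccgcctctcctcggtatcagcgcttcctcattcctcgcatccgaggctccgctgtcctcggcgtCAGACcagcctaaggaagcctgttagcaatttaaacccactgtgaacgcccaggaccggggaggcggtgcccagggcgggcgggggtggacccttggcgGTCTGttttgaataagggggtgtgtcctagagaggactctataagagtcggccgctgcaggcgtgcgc
The Bmp4 window held 3 E-boxes and neither SMAD motif, and that of Grem1 held 1 of each SMAD motif and no E-box. The Id2 window held 1 GC-rich site and 1 E-box, and that of Id3 held 2 SMAD boxes. Over all 32851 windows of this kind, for 27025 genes, 42.2% held a SMAD box, 9.59% the GC-rich site and 66.2% an E-box. The numbers of CpG dinucleotides were 11 for Bmp4, 24 for Grem1 and 18 for each of Id2 and Id3, against a median of 6 over all windows. The table matched 5 of the 10 members, the fifth being Bmp6. It had no entry for Bmp2, Bmp7, Nog, Bambi and Id1. These matches describe letters only.

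Between 37159840 and 66269681 reads were counted on genes per library, so that 1 count was worth 0.0162 to 0.0273 CPM, the unit used here for counts scaled to library size by TMM. Of the 13913 genes tested, 38.1% were higher and 38.6% were lower in the mean of 4T1 and 4T1.2 than in the mean of 66cl4 and 67NR, at an adjusted p under 0.05 by edgeR. By the same test, all 8 epithelial markers were higher in 4T1/4T1.2. Their summed level was 1876 to 3543 CPM over the 4T1.2 and 4T1 libraries and 465 to 723 CPM over those of 66cl4 and 67NR. In 66cl4 and 67NR, 5 of the 8 were under 1 CPM in both libraries of each line. These were Epcam, Cdh1 and Cldn3, and also Krt19 and Cldn7, which reached only 1.17 and 1.10 CPM in any library. Krt8 was 907 to 1603 CPM in 4T1.2 and 4T1. It stayed at 464 to 607 CPM in 66cl4 and 67NR, most of their sum. Krt18 was 542 to 1201 CPM in 4T1.2 and 4T1, 115 and 113 CPM in 66cl4 and 0.819 and 1.13 CPM in 67NR. Of 7 mesenchymal markers, 5 were lower in 4T1/4T1.2, and 3 of them (Cdh2, Zeb1 and Snai2) were under 1 CPM there. Vim was higher, at 4747 to 6911 CPM against 1894 to 3541 CPM, and Zeb2 overlapped between the pairs. The mesenchymal sum was thus 5476 to 7508 CPM over the 4T1.2 and 4T1 libraries and 3317 to 5566 CPM over the others. Within the pair, 7 of the 8 epithelial markers were lower in 4T1.2 than in 4T1 (median log2 fold change -1.48). Summed leucocyte markers (10 genes) were low, at 8.52 to 13.5 CPM in 4T1.2 and 4T1 and 1.81 to 3.26 CPM in 66cl4 and 67NR. Ptprc had 0 to 2 counts per library. Summed endothelial markers (5 genes) were 0.830 to 3.70 CPM in 4T1.2 and 4T1 and 0.335 to 0.442 CPM in 66cl4 and 67NR. The 3 leucocyte and 2 endothelial markers that were tested were all higher in 4T1/4T1.2. Summed fibroblast and osteoblast markers (7 genes) were not near 0, at 126 to 217 CPM, and overlapped between the pairs. Pdgfra was at 84.2 to 169 CPM and Runx2 at 22.9 to 77.5 CPM, while 4 or 5 of the 7 were under 1 CPM in both libraries of each line. Whether any of these differences bears on the BMP genes was not tested. In bulk RNA, fewer cells with a transcript and less transcript per cell cannot be told apart.

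**Figure D1:**
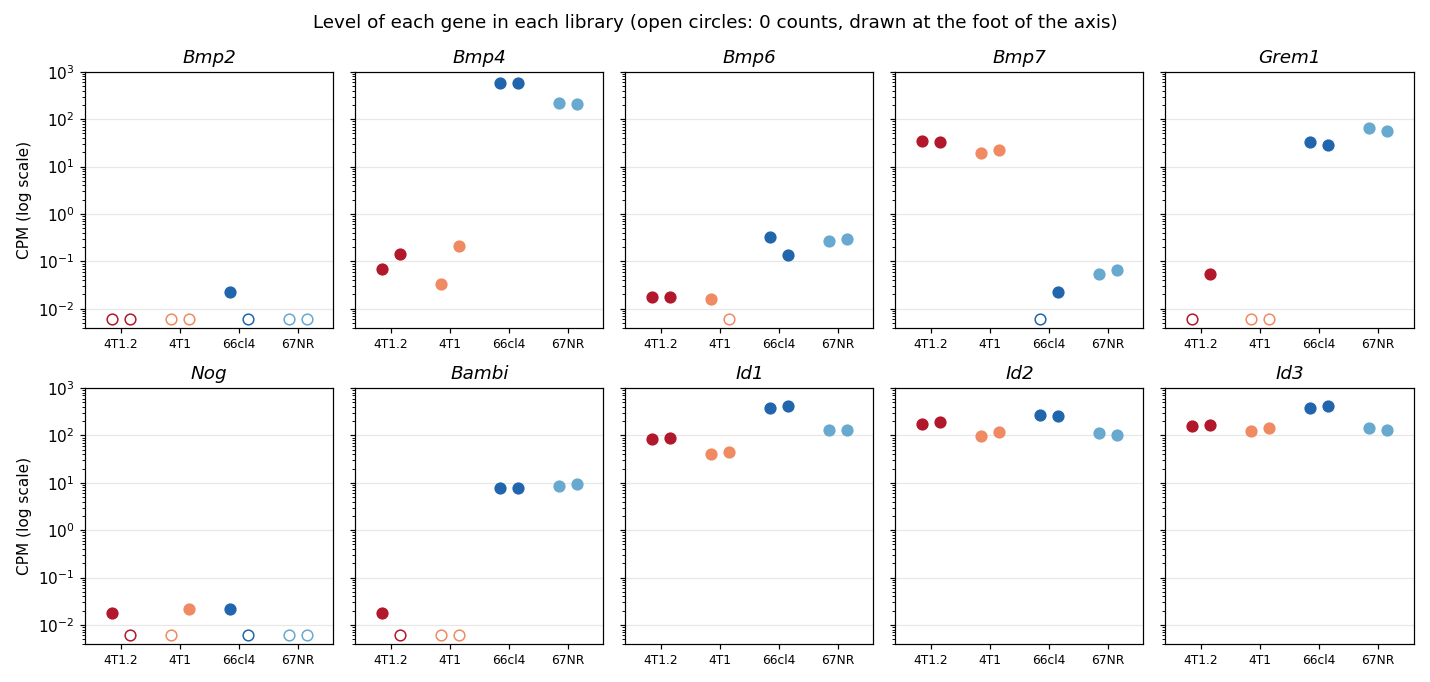
Level of each of the 10 genes in each library in CPM on a log scale, with 2 points per line for the 2 replicates and open circles at the foot of the axis for libraries with 0 counts. Bmp4, Grem1 and Bambi are high in 66cl4 and 67NR and near 0 in 4T1.2 and 4T1, Bmp7 has the opposite pattern, and the Id genes are above 40 CPM in every library.

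Of the 10 members, 8 passed the filter on low counts and were tested, and Bmp2 and Nog were not. A gene at 0 in some lines could pass the filter only through the lines where it is high, so that the counts of called members below describe these genes and are no evidence about the pathway. In the pooled comparison of 4T1/4T1.2 with 66cl4/67NR, 1 member was higher (Bmp7) and 7 were lower, next to the shares of all genes given above. All 8 tested members differed between at least 2 of the lines, against 84.7% of all genes. The comparisons share libraries and are not independent of each other.

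Among the ligands, Bmp4 (chr14:46383525-46390669), which directs the differentiation of many mesodermal tissues, separated the lines most plainly. Its level was 577 and 570.3 CPM in the 66cl4 libraries and 216 and 206 CPM in those of 67NR. In 4T1.2 it had 4 and 8 counts and in 4T1 2 and 10 counts, at most 0.216 CPM in any library. All 4 libraries of 66cl4 and 67NR lay above the others, and the libraries of 66cl4 lay above those of 67NR without overlap. From the summed counts, the pooled level was 3530.3-fold lower in 4T1/4T1.2 (95% counting interval 2372 to 5510.3). Within the pair, 66cl4 exceeded 67NR by a log2 fold change of 1.44 (SE 0.15, adjusted p = 5.43e-05 by edgeR). Between 4T1.2 and 4T1 the log2 difference was -0.08 with a 95% interval of -1.61 to 1.44, so that 24 counts in 4 libraries do not order these lines. The fitted pooled log2 fold change of -11.61 was -12.46 without replicate 2 of 4T1, the library with 10 of those counts. An exon of Gm15217, a gene on the opposite strand, overlaps an exon of Bmp4. The libraries were made with a kit that does not mark strand, so that reads from the overlap cannot be told apart. Gm15217 itself had 0 counts in each 4T1.2 and 4T1 library and 25 to 107 in the others.

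Bmp7 (chr2:172868012-172940321), a ligand needed in kidney and eye development, had the reverse pattern. It was counted at 34.4 and 33.3 CPM in 4T1.2 and 19.2 and 22.9 CPM in 4T1, against 0 and 1 counts in 66cl4 and 2 and 4 counts in 67NR. The 2 pairs of lines did not overlap, and both 4T1.2 libraries lay above both 4T1 libraries. The summed counts give a 739.5-fold higher pooled level (95% counting interval 359 to 1840.2), with a fitted log2 fold change of 9.83 (SE 0.20, adjusted p = 7.32e-11 by edgeR). Without replicate 2 of 66cl4, which holds the only count of that line, the fitted value was 11.08. Bmp7 was higher in 4T1.2 than in 4T1 by 0.69 on the log2 scale (SE 0.13, adjusted p = 0.00536). The 1 and 6 summed counts of 66cl4 and 67NR were not shown to differ (log2 difference -2.23, adjusted p = 0.112, counting interval of the 5.49-fold ratio 0.667 to 253).

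Bmp6 (chr13:38345716-38500314), known as a regulator of hepcidin in iron metabolism, was scarce everywhere. It had 15 and 6 counts in 66cl4, 10 and 18 counts in 67NR, 1 and 1 counts in 4T1.2 and 1 and 0 counts in 4T1. Its highest level was 0.332 CPM. The pooled ratio was 19.1-fold lower in 4T1/4T1.2, with a wide counting interval of 6.18 to 96 and an adjusted p of 0.000134. The fitted log2 fold change was -4.08, or -5.19 without replicate 1 of 4T1, which holds the only count of that line. The 3′ exons of Bmp6 overlap exons of Txndc5 on the other strand, which had 15998 to 29078 counts per library. How many of the Bmp6 reads belong to Txndc5 was not tested.

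Bmp2 (chr2:133552159-133562896), a ligand that induces bone and cartilage, had 1 count in all 8 libraries, in replicate 1 of 66cl4. With 0 counts in a line, up to 3 counts over its libraries remain possible, and no difference was detectable at this depth.

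**Figure D2:**
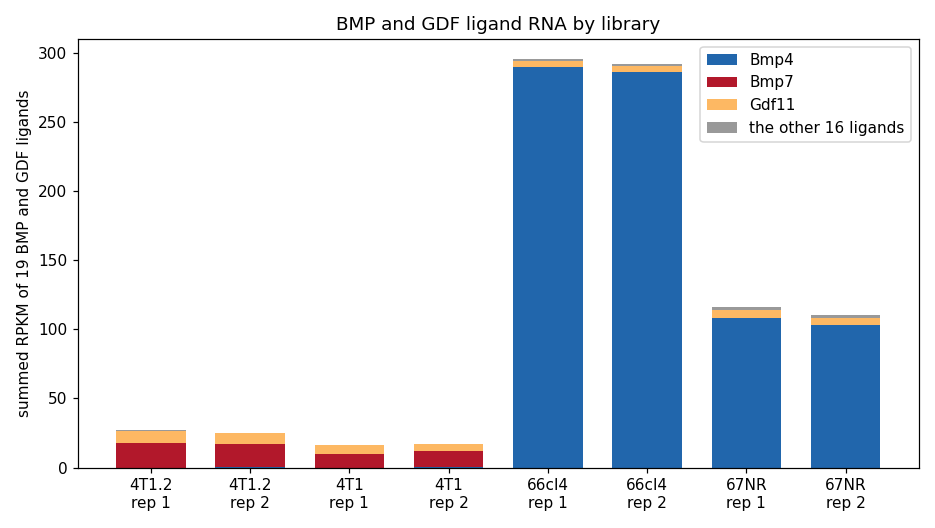
Summed RPKM (CPM per kilobase of transcript) of 19 BMP and GDF ligands in each of the 8 libraries, stacked by ligand. The sum is 292 to 295 in 66cl4, nearly all Bmp4, and 16.5 to 26.8 in 4T1 and 4T1.2, where Bmp7 and Gdf11 make up the bars.

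On a scale corrected for transcript length, the lines thus differed in the make-up of their ligand RNA as well as in its amount. The summed RPKM of the 4 ligands above and 15 other BMP and GDF ligands was 295 and 292 in the 66cl4 libraries, of which Bmp4 supplied 98.0% in each. It was 116 and 111 in 67NR, with 93.1% and 93.4% from Bmp4. In 4T1.2 the sum was 26.8 and 25.3, of which Bmp7 gave 65.1% and 66.8%, and in 4T1 it was 16.5 and 17.0, with 59.0% and 68.4% from Bmp7. The second ligand of these 2 lines was Gdf11, a ligand of the activin branch, with 29.0% to 38.5% of the sum.

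Among the antagonists, Grem1 (chr2:113748675-113758648), which encodes gremlin, a secreted binder of BMP2, BMP4 and BMP7, was found where Bmp4 was found. Its level was 32.6 and 28 CPM in 66cl4 and 65.7 and 55.9 CPM in 67NR. The 4T1.2 libraries had 0 and 3 counts and the 4T1 libraries none. Every 67NR library lay above every 66cl4 library, the opposite order to that of Bmp4. Against the upper limit of 3 counts for 4T1, Grem1 was at least 1085-fold lower in 4T1 than in 66cl4 and at least 2132-fold lower than in 67NR. For 4T1.2 the ratios were 1146-fold lower than 66cl4 (95% counting interval 392 to 5559.9) and 2252-fold lower than 67NR (770.1 to 10922). The pooled fitted log2 fold change of -12.32 (adjusted p = 6.6e-10) became -14.08 without replicate 2 of 4T1.2, the only library of its pair with counts. Between 66cl4 and 67NR the level was 1.97-fold lower in 66cl4 (95% counting interval 1.88 to 2.06, adjusted p = 0.00106 by edgeR). Of the 75-base stretches of Grem1 transcripts, 0.741% also occur in transcripts of other genes (Gbp5 and Olfr678), and none did for the other members.

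Taken as a ratio of RPKM, Bmp4 exceeded Grem1 by 14.6 and 16.7 times in the 66cl4 libraries and by 2.70 and 3.03 times in those of 67NR. The 2 lines did not overlap in this ratio. With 2 libraries against 2, no exact permutation test can fall under a p of 0.333, and no test is given.

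Bambi (chr18:3507011-3516404), the pseudoreceptor, had 7.89 and 7.95 CPM in 66cl4 and 8.52 and 9.66 CPM in 67NR. A single count was found in the 4 libraries of 4T1.2 and 4T1, in replicate 1 of 4T1.2. The pooled level was 1900.1-fold lower in 4T1/4T1.2, with a counting interval of 341 to 75094, and the fitted log2 fold change was -10.66 (SE 0.30, adjusted p = 2.53e-09), or -11.74 without that library. The 67NR libraries were slightly above those of 66cl4, a difference that did not pass the test (log2 fold change -0.20, 95% interval -0.57 to 0.16, adjusted p = 0.343). Nog (chr11:89300638-89302559), which encodes noggin, had 1 count in each of 3 libraries, 1 each of 4T1.2, 4T1 and 66cl4, and none in the others. No difference was detectable for it.

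**Figure D3:**
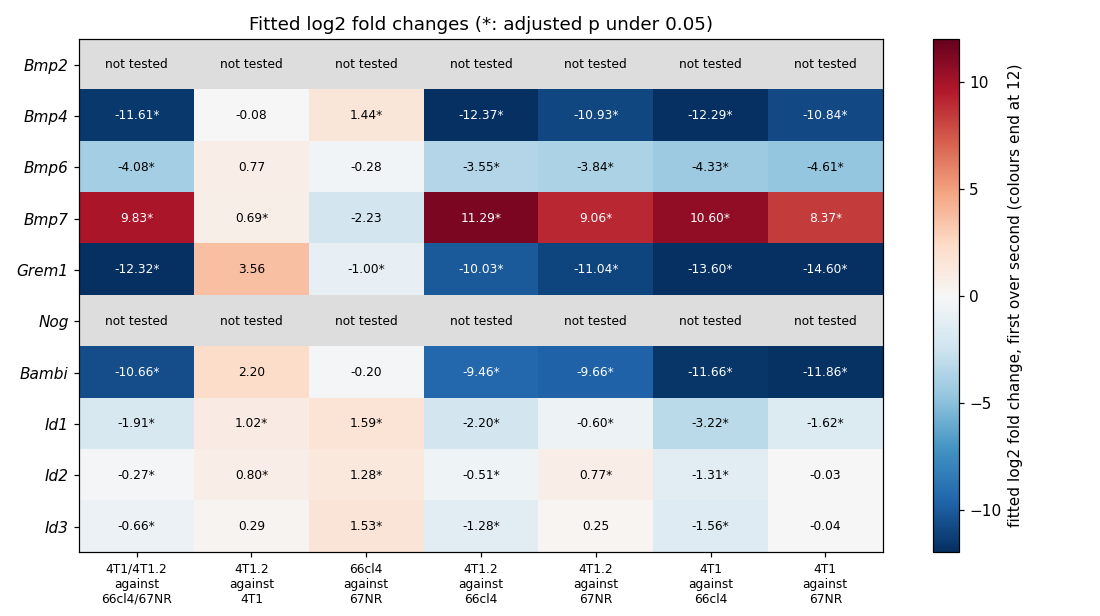
Fitted log2 fold changes of the 10 genes (rows) in the pooled comparison and in each pair of lines (columns), with red for higher and blue for lower in the first line named, and an asterisk for an adjusted p under 0.05. Grey rows were not tested. Values of Bmp4, Bmp6, Bmp7, Grem1 and Bambi that involve a line near 0 counts depend on the prior count and are no bounds. The Id genes change by -3.22 to 1.59 on the log2 scale, and their sign differs among the columns.

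The Id targets behaved differently from the ligands and antagonists: all were abundant in every line. ID proteins lack a DNA-binding region and keep E proteins, their basic helix-loop-helix partners, from DNA. Id1 (chr2:152736251-152737410) was measured at 387 and 413 CPM in 66cl4, 132 and 133 CPM in 67NR, 86.2 and 88.1 CPM in 4T1.2 and 41.4 and 44.5 CPM in 4T1. No pair of lines overlapped, and each neighbour in this order differed from the next: 66cl4 from 67NR by 1.59 on the log2 scale (SE 0.08, adjusted p = 8.13e-07), 67NR from 4T1.2 by 0.60 (adjusted p = 0.000117) and 4T1.2 from 4T1 by 1.02 (SE 0.08, adjusted p = 4.94e-05). Between the ends of the order, 4T1 was 9.35-fold lower than 66cl4 (counting interval 9.07 to 9.64). The fitted log2 fold change, whose interval includes the spread between replicates, was -3.22 (95% interval -3.42 to -3.02).

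Id2 (chr12:25093799-25096092) followed another order. It was 271 and 260.1 CPM in 66cl4, 176 and 197 CPM in 4T1.2, 115 and 103 CPM in 67NR and 96.6 and 118 CPM in 4T1. The libraries of 67NR and 4T1 overlapped, and all others lay apart. The step from 66cl4 to 4T1.2 was 0.51 on the log2 scale (adjusted p = 0.00259) and that from 4T1.2 to 67NR was 0.77 (SE 0.11, adjusted p = 0.000194). The difference of 4T1 from 67NR was -0.03 (95% interval -0.28 to 0.22, adjusted p = 0.829). Since 4T1.2 stood above 67NR, the pooled value of -0.27 (SE 0.08, adjusted p = 0.0111) averages differences of opposite sign. It missed the threshold without replicate 1 of 4T1.2 (-0.22, adjusted p = 0.052) and without replicate 1 of 67NR (-0.23, adjusted p = 0.056).

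Id3 (chr4:136143822-136145392), the member of the 3 with the highest mean RPKM, was highest in 66cl4. Its level was 375 and 422 CPM there, 159 and 169.9 CPM in 4T1.2, 143 and 133 CPM in 67NR and 126 and 144 CPM in 4T1. The 4T1.2 libraries lay above those of 67NR and 4T1, which overlapped. The pooled log2 fold change of -0.66 (SE 0.07, adjusted p = 1.7e-05 by edgeR) averages large differences from 66cl4 and small ones from 67NR. Against 66cl4 the log2 fold change was -1.28 in 4T1.2 (adjusted p = 2.48e-06) and -1.56 in 4T1 (adjusted p = 5.54e-07), and 66cl4 exceeded 67NR by 1.53 (adjusted p = 3.85e-06 by edgeR). The other 3 lines were close to each other. The differences were 0.25 for 4T1.2 over 67NR (95% interval 0.02 to 0.48, adjusted p = 0.0502), 0.29 for 4T1.2 over 4T1 (0.06 to 0.51, adjusted p = 0.0794) and -0.04 for 4T1 over 67NR (-0.26 to 0.19, adjusted p = 0.763). The first of these passed the threshold under 10 alternatives (adjusted p between 0.0258 and 0.0478), and the second without replicate 2 of 4T1 (0.39, adjusted p = 0.0341).

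Summed over Id1, Id2 and Id3, the RPKM was 1031 and 1100.1 in 66cl4, 400.1 and 429.7 in 4T1.2, 386 and 367 in 67NR and 253 and 292 in 4T1. The libraries of 66cl4 were the highest and those of 4T1 the lowest. The make-up of the sum differed as well. Id1 held 41.2% ± 0.0311 (SD, n = 2) of it in 66cl4 and 38.6% ± 1.63 in 67NR, but 23.1% ± 0.817 in 4T1.2 and 17.3% ± 0.872 in 4T1. The share of Id3 was 51.9% ± 0.265 in 4T1 and 38.5% to 41.6% on average in the other lines.

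Within the 2 pairs, 4T1.2 exceeded 4T1 for 3 of the 8 tested members (Bmp7, Id1 and Id2), and no member was lower. Of all genes, 9.37% were higher and 9.9% lower in that comparison, in which the epithelial markers moved as well, as given above. Between 66cl4 and 67NR, 4 members were higher in 66cl4 (Bmp4, Id1, Id2 and Id3) and 1 was lower (Grem1), against 22.3% and 22.4% of all genes. Across the pairs, 8 members differed between 4T1.2 and 66cl4 and 7 between 4T1.2 and 67NR, where the shares of all genes were 68.8% and 67.8%. Between 4T1 and 66cl4 there were 8, next to 70% of all genes, and between 4T1 and 67NR 6, next to 68.2%.

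**Figure D4:**
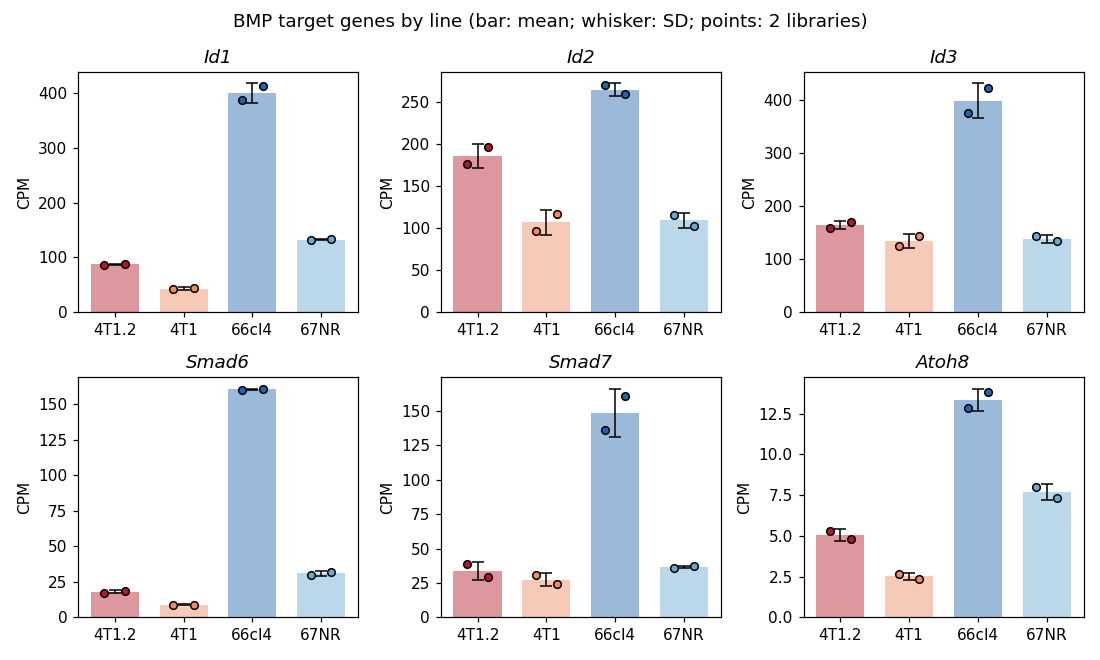
CPM of 6 BMP target genes by line, on linear axes from 0: bars are means, whiskers the SD and points the 2 libraries. The 66cl4 bar is the tallest in each panel, and that of 4T1 the shortest, by little from 67NR for Id2 and Id3. The tested targets Id4, Dlx3, Msx2 and Hey1 are not drawn. Of these, Id4 had no count in 66cl4 and 67NR. Dlx3 was 13.9 and 13.5 CPM in 67NR, above 11.3 and 13.3 CPM in 66cl4. Hey1 was lowest in 67NR, at 0.164 and 0.211 CPM.

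The other BMP target genes of a list of 9 were examined next, of which 7 were tested. Against 67NR, 4 of them were higher in 66cl4 and none was lower (median log2 fold change 0.80), against 22.3% and 22.4% of all genes and a median of 0. Smad6 and Smad7 encode the inhibitory SMADs of the pathway. Smad6 was 160.2 and 161 CPM in 66cl4, 29.8 and 32.3 CPM in 67NR, 17.5 and 18.8 CPM in 4T1.2 and 8.65 and 9.07 CPM in 4T1, with no overlap between lines and the same order as Id1. It exceeded 67NR in 66cl4 by 2.37 on the log2 scale (SE 0.09, adjusted p = 1.31e-07) and 4T1 in 4T1.2 by 1.03 (SE 0.09, adjusted p = 9.46e-05). Smad7 was 136 and 161 CPM in 66cl4 and between 24.2 and 38.5 CPM in the other 6 libraries, a difference of 2.02 from 67NR (adjusted p = 9.66e-06). Atoh8, a transcription factor gene, had the order 66cl4, 67NR, 4T1.2 and 4T1, at 13.4 ± 0.692, 7.69 ± 0.482, 5.05 ± 0.38 and 2.52 ± 0.21 CPM (SD, n = 2).

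In the pooled comparison, 5 of these 7 targets were lower in 4T1/4T1.2 and 1 was higher, with a median log2 fold change of -1.50. Of all genes, 38.6% were lower and 38.1% higher, with a median of -0.01. The homeobox gene Msx2 had no count in 4T1.2 and 4T1 and was at least 518-fold lower there than in 66cl4/67NR, where it was 6.69 to 7.43 CPM on average by line. Dlx3, another homeobox gene, was 87-fold lower (counting interval 61.7 to 127). Id4, the fourth Id gene, ran the other way: it was 2.83 ± 0.308 CPM in 4T1.2 and 3.47 ± 0.0933 CPM in 4T1 and had no count in 66cl4 and 67NR, at least 197-fold higher. Between 4T1.2 and 4T1, 2 of the 7 were higher in 4T1.2 (Smad6 and Atoh8) and none was lower, where 9.37% and 9.9% of all genes were called.

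**Figure D5:**
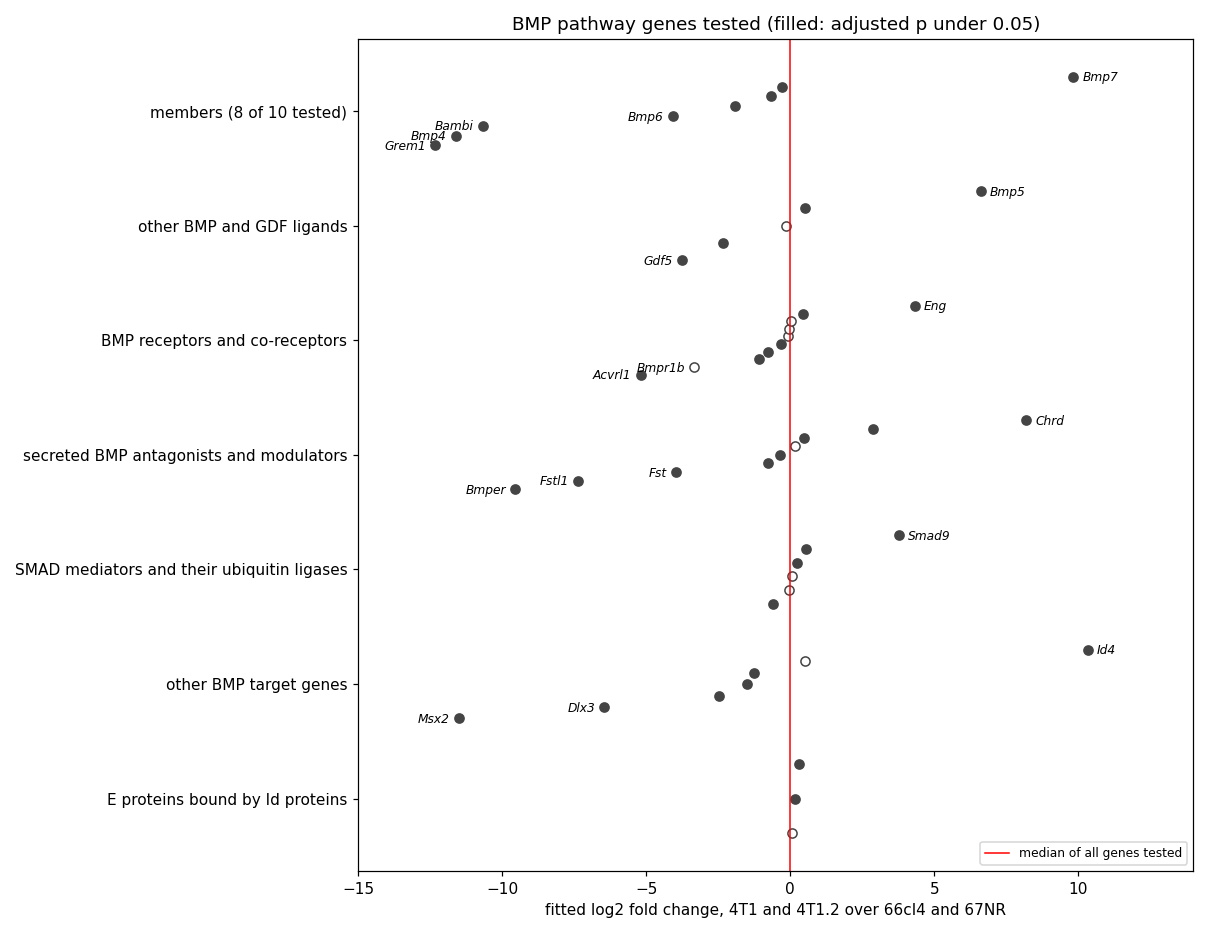
Fitted log2 fold changes of 4T1/4T1.2 over 66cl4/67NR for the 8 tested members and the 40 tested genes of 6 pathway lists, one row per list, with filled points for an adjusted p under 0.05 and a line at the median of all genes. Receptor and SMAD genes cluster near 0 apart from Eng, Acvrl1, Bmpr1b and Smad9, and the antagonist and target rows spread to both sides.

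The rest of the pathway was followed in 6 lists of 61 genes, and 40 of these passed the filter. In 4T1/4T1.2, 13 showed a higher level and 17 a lower one, next to 38.1% and 38.6% of all genes. The median over all genes was -0.01 on the log2 scale. Of 15 further ligands, 5 were tested, 2 higher and 2 lower (median -0.13). Gdf11 was 15.7 and 14.5 CPM in 4T1.2, 11.5 and 8.96 CPM in 4T1, 10 and 9.32 CPM in 67NR and 8.07 and 7.9 CPM in 66cl4. Its pooled log2 fold change was 0.50 (adjusted p = 0.0011), but the libraries of 4T1 and 67NR overlapped, with a difference of 0.09 (95% interval -0.23 to 0.41, adjusted p = 0.595). Bmp5 had 56 counts in 4T1/4T1.2 and none in the other lines, at least 15.9-fold higher. Gdf5 and Gdf7, ligands of joint and neural development, were 12.3-fold and 5.36-fold lower, and reached 2.02 CPM at most in any library.

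Among 11 receptors and co-receptors, 10 were tested, of which 2 were higher and 4 lower (median log2 fold change -0.20, all genes 38.1% higher and 38.6% lower). Bmpr1a, the type I receptor of BMP2 and BMP4, was the most abundant of them per length, at 25.7 ± 0.863 RPKM (SD, n = 2) in 67NR, the lowest line, and 49.4 ± 1.58 RPKM in 4T1.2, the highest. Its pooled log2 fold change was 0.46 (SE 0.07, adjusted p = 0.00022), although the libraries of 4T1 and 66cl4 overlapped. Eng, the co-receptor endoglin, was 147 and 123 CPM in 4T1.2 and 104 and 88 CPM in 4T1, and between 3.55 and 8.04 CPM in the other 4 libraries. Its pooled log2 fold change was 4.33 (SE 0.10, adjusted p = 1.97e-10). Acvrl1, a type I receptor for BMP9 and BMP10, was lower by 42.1-fold, with 20.4 ± 1.19 CPM in 67NR and 0.399 ± 0.0772 CPM in 4T1. The co-receptors Rgma and Rgmb had log2 fold changes of -0.78 and -1.10 (adjusted p = 4.43e-05 and 8.15e-06). The type II receptor Bmpr2, not among the genes with the largest differences and named for its role, had a pooled log2 fold change of -0.05 (adjusted p = 0.753).

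Of 17 further secreted antagonists and modulators, 9 were tested, 3 higher and 5 lower (median log2 fold change -0.35, all genes 38.1% higher and 38.6% lower). Chrd, which encodes the BMP antagonist chordin, was 8.28 and 6.65 CPM in 4T1.2 and 1.67 and 1.51 CPM in 4T1, with 5 counts in 66cl4 and none in 67NR. It was 4.66-fold higher in 4T1.2 than in 4T1 from the counts, with a log2 fold change of 2.22 (SE 0.19, adjusted p = 0.000126). Bmp1, which despite its name is a protease that cuts chordin and procollagen, was 704 ± 61.9 CPM in 4T1.2 and 91.6 ± 2.03 CPM in 67NR, a pooled log2 fold change of 2.88 (adjusted p = 2.22e-10). Twsg1, a chordin cofactor, was higher by 0.47 (adjusted p = 0.000162). Lower in 4T1/4T1.2 were Bmper, a chordin-like regulator (888-fold, counting interval 346 to 3261), Fstl1, a follistatin-like glycoprotein (219-fold), and Fst, which encodes the activin binder follistatin. Fst was 110.5 and 112 CPM in 67NR, 43 and 53.7 CPM in 66cl4 and 4.08 to 5.52 CPM in the other lines. Like Grem1, it was higher in 67NR than in 66cl4 (log2 fold change -1.20 for 66cl4 against 67NR, adjusted p = 2.75e-05).

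The 6 SMAD genes and SMAD ubiquitin ligases were all tested, with 3 higher and 1 lower (median log2 fold change 0.16, all genes 38.1% higher and 38.6% lower). Smad4, the shared partner, had mean levels of 42.8 to 44.8 RPKM over the lines and did not pass the test (log2 fold change -0.05, 95% interval -0.17 to 0.08, adjusted p = 0.435). Smad1 was lower by 1.51-fold in 4T1/4T1.2 and Smad5 higher by 0.25 on the log2 scale (adjusted p = 8.04e-05 and 0.0072). Smurf2, a ubiquitin ligase for SMADs, was higher by 0.55 (adjusted p = 1.68e-05). Smad9 had 66 counts in 4T1/4T1.2 and 3 in the other lines, an 18.8-fold ratio with a counting interval of 6.15 to 93.3. Of the 3 E proteins that ID proteins bind, Tcf3 and Tcf4 were higher by 0.29 and 0.15 on the log2 scale (adjusted p = 0.00192 and 0.045) and Tcf12 differed by 0.05 (adjusted p = 0.443). The pooled value of Tcf4 averages differences of opposite sign. It was 480.0 and 436 CPM in 66cl4, 381 and 398 CPM in 4T1.2, 338 and 346 CPM in 4T1 and 237 and 236 CPM in 67NR, so that both libraries of 66cl4 lay above those of 4T1 and 4T1.2 and both of 67NR below. Against 66cl4, Tcf4 was lower in 4T1.2 by a log2 fold change of -0.23 and in 4T1 by one of -0.42 (adjusted p = 0.033 and 0.00151).

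The genes with levels most like those of 3 members were named by the Pearson correlation of log2 CPM over the 8 libraries, as a description. For Bmp4 they were Hoxb8, Adamts5 and Khdrbs3 (r of 0.998 to 0.999), and 1045 genes had an r over 0.95. For Grem1 they were Thrb, Dipk1c and Unc93b1, of which Dipk1c averaged only 0.00441 CPM over the 4T1.2 and 4T1 libraries and 0.422 CPM over the others. These libraries fall in 2 pairs of lines that differ in most genes, so that a high r with Bmp4 or Grem1 is common. For Id3 they were Egr2 (r = 0.996), Kcnj16 and Grk4, and 164 genes passed 0.95. Egr2, an immediate early transcription factor gene, averaged 3.92 CPM over the 4T1.2 and 4T1 libraries and 10.5 CPM over those of 66cl4 and 67NR. Kcnj16 was near the floor, at 0.00882 and 0.128 CPM in the same means. Id3 set 66cl4 apart from the other lines, which means over pairs of lines do not show.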

How the data were processed

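RNA-seq was analysed for 4 lines with 2 replicates each. Sample labels spell the 66cl4 line 66c14, and the spelling of the series description and the paper was used. The deposited values are raw whole-number counts per Entrez gene. For their endothelial libraries the authors describe alignment to mm10 with Rsubread and counting with featureCounts on its built-in annotation. They state that the tumour lines were processed in a like way. Libraries of the tumour lines were made, per the labels, with the TruSeq RNA v2 kit, which does not mark strand.

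Of 27179 identifiers, 25275 (93.0%) matched the RefSeq gene table (GRCm38.p6). After filterByExpr with default settings (15269 genes), unmatched, predicted and ribosomal genes were removed, which left 13913. These had held all but 5.39% to 8.00% of the counts. The main test was the quasi-likelihood F-test of edgeR 4.0.16 (R 4.3.3, legacy fit, TMM, prior count 0.125) with a mean for each line, 4 residual degrees of freedom and Benjamini-Hochberg adjustment over the genes tested. Standard errors and intervals of log2 fold changes come from the F statistic. CPM use TMM library sizes, and RPKM the deposited lengths. Ratios of summed counts have exact 95% intervals that cover counting error only, and a group at 0 was set at 3 counts over the group. DESeq2 1.42.0, limma 3.58.1 and other alternatives are given with the sensitivity of the results. The fitting functions were tested on simulated data. Promoters and gene starts are RefSeq's, and overlaps come from GENCODE for GRCm38. Figures were drawn with matplotlib 3.10.9.

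The genes named are the 10 members, and of each pathway list the 3 with the largest differences in each direction and the 3 highest in RPKM, others being marked. The members and lists were chosen with earlier results of these data known. Within each line, the 2 replicates were further apart than counting noise allows.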

Additional observations from a re-analysis of the deposited data

How the results depend on the processing

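When genes needed 10 counts in each library, only Id1, Id2 and Id3 could be tested, and the number of members called was 3 in the pooled comparison, 3 between any lines, 3 for 66cl4 against 67NR, 3 for 4T1.2 against 66cl4, 2 for 4T1.2 against 67NR, 3 for 4T1 against 66cl4 and 1 for 4T1 against 67NR. When a change had to exceed 1 on the log2 scale, the number fell to 0 for 4T1.2 against 4T1 and to 3 for 66cl4 against 67NR, and 17 of the 40 tested genes of the pathway lists were called in place of 30. In this test Id2 and Id3 lost their pooled calls, as did Bmp7, Id1 and Id2 for 4T1.2 against 4T1, Grem1 and Id2 for 66cl4 against 67NR, Id2 for 4T1.2 against 66cl4, and Id1 and Id2 for 4T1.2 against 67NR. The other scalings and tools (DESeq2 size factors, upper quartile, no filter, no removal by annotation, a newer or robust fit, DESeq2, limma-voom and thinning to the smallest library) and each fit without 1 library kept the counts of members called within 1.5 times. No member changed sign in a comparison where it was called. The main fit did not use the replicate numbers to pair the libraries. Deviations from the line means had correlations of -0.12 to 0.27 across lines, the highest between 4T1.2 and 4T1. These values do not show whether the numbers pair the libraries. With the replicate block, the calls were 8 pooled, 3 for 4T1.2 against 4T1, 5 for 66cl4 against 67NR and 8 for 4T1.2 against 67NR, where Id3 passed (0.25, adjusted p = 0.0393), and the block changed no other call of a member. Fitted changes of Bmp4, Bmp6, Bmp7, Grem1 and Bambi rest on 0 to 10 counts per library in their low lines, so that their size is uncertain. For 4T1.2 against 66cl4, Grem1 went from -10.03 to -13.57 without replicate 2 of 4T1.2, Bambi from -9.46 to -11.63 without replicate 1 of 4T1.2, and Bmp7 from 11.29 to 13.78 without replicate 2 of 66cl4. With 2 libraries per line, differences of the size between 4T1.2 and 67NR in Id3 lie at the threshold.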
